A study of Mus musculus with 16 samples.

Results

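The 10 immediate early genes Fos, Fosb, Junb, Egr1, Nr4a1, Npas4, Ier2, Arc, Dusp1 and Btg2 were followed over 16 mouse cerebella, as 10 of the 22911 genes that could be named on the arrays. A probe was taken as one of theirs when the accession it carries in the scanner output belongs to the gene, which gave 13 probes, of which 12 passed the filter on dim signal. All 10 genes kept at least 1 probe, and each is given by its brightest one. The rule itself uses no measured value, but the genes were chosen with earlier results of these data known.

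RNA was taken from 20 mg of cerebellar cortex per mouse and put on 1-colour Agilent arrays, on which a brighter spot means that more of a gene's RNA was bound. The mice were homozygous for the Atm null allele of the strain B6;129S4-Atmtm1Bal/J (Atm-/-) or were their wild type littermates (WT). Loss of Atm was in the whole body, and all mice were labelled male and 3.5 months old. From 6 weeks of age, mice drank water with nicotinamide riboside (NR), a precursor of NAD+, at 3.5 mg/ml (12 mM), or water alone (veh), for 2 months. Each of the 4 combinations of genotype and water held 4 mice with 1 array each, and they are called WT veh and WT NR for wild type mice and Atm-/- veh and Atm-/- NR for mutants.

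Immediate early genes are transcribed within minutes of a stimulus to a cell, from transcription factors that are already present and need no new protein. In neurons the stimulus is calcium entry or growth factor signalling, which reaches the genes through kinases that phosphorylate CREB and the ternary complex factors that sit with SRF. Many of the products are transcription factors that carry the signal on to later genes, and others, such as phosphatases, shut the pathway off again. Their messenger RNAs are short lived, so that their level in a dissected tissue reads the recent state of its cells and the handling of the animal.

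The promoters of Fos, Nr4a1 and Dusp1 are printed because Fos moved with Nr4a1 and with Dusp1 from mouse to mouse below. Each is the run of 250 bases before the start of transcription, read 5′ to 3′ on the strand of the gene, from RefSeq on GRCm38.p6. Capitals mark TGACG and its reverse complement CGTCA, the core of the CRE to which CREB binds. Fos lies at chr12:85473640-85473889 on the plus strand, Nr4a1 at chr15:101266596-101266845 on the plus strand, and Dusp1 at chr17:26508473-26508722 on the minus strand.
Fos: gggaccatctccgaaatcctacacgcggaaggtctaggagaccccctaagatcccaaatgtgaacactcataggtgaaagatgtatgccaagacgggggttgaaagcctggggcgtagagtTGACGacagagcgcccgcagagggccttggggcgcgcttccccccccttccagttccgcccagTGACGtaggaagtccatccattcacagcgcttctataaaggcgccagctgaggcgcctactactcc
Nr4a1: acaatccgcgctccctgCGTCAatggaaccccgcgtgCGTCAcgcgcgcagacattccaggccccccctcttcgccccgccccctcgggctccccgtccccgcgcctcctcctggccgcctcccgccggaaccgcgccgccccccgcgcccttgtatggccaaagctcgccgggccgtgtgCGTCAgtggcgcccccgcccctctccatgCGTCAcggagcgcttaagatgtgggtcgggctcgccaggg
Dusp1: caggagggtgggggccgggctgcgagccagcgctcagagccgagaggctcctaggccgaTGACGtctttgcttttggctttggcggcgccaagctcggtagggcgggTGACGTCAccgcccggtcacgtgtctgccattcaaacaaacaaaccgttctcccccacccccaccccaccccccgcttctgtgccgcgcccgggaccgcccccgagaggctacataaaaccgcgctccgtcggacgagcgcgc

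RefSeq promoters were given for 7 of the 10 members, which besides those printed are Fosb, Junb, Npas4 and Btg2. TGACG was present on either strand in 7 of these 7 windows, against 17.8% of all 32851 windows of 250 bases. Nr4a1 held 4 matches, Dusp1 held 3, Fos held 2, and Npas4 and Btg2 held 2 each, counting both strands. In Fos the matches began 129 and 66 bases before the start, and in Nr4a1 the nearest began 40 bases before it. The full palindrome TGACGTCA, which contains both strands of the shorter motif and so counts there as a pair of overlapping matches, was in Dusp1 and Btg2, against 1.5% of all windows. The CArG box, to which SRF binds, was matched in 0 of the 7 windows, against 1.5% of all windows. With so low a share, 0 of 7 does not show a lack of the box, and bases beyond the 250 were not searched. Such matches describe letters in a window and not binding.

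Some arrays went against their labels or stood apart. On WT veh 4, the markers of choroid plexus lay on average 4.29 log2 units above each gene's mean over all arrays (-0.775 to 0.487 on the others), and those of forebrain 2.59 above (at most 0.755 on the others). The log2 of the summed signal of the choroid plexus markers was 18.88 there, against 14.32 to 15.51 on the others, and that of the forebrain markers was 16.02, within the 15.42 to 16.25 of the other arrays. Bcl11b, a forebrain transcription factor, read from 8.51 to 10.8 on 5 arrays (WT veh 4, and replicates 2 and 3 of WT NR and of Atm-/- NR), and from 5.24 to 6.29 on the other 11 arrays. On 4 arrays labelled male (replicates 1 and 4 of WT NR, replicate 3 of Atm-/- veh and replicate 4 of Atm-/- NR), the Y-linked genes were not above background and Xist, the transcript of the inactive X chromosome, was. Each genotype filled 1 of the 2 slides, with the treatments on separate lines of it and the replicate number as the column. Genotype and slide, treatment and line, and replicate number and column therefore cannot be told apart. As a check of the labels, 1 Atm probe read 8.52 to 9.03 on the WT arrays and 7.72 to 8.08 on the Atm-/- arrays, and the other Atm probe overlapped between genotypes. Of the markers of cerebellar cells, 11 of 11 for granule cells and 13 of 13 for Purkinje cells passed the filter, as did 8 of 9 for choroid plexus and 7 of 9 for forebrain.

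None of the 10 genes differed between groups by the test. For 5 of them (Fos, Fosb, Egr1, Npas4 and Dusp1) the range of the 4 group means was smaller than the SD within groups, and for the other 5 (Junb, Nr4a1, Ier2, Arc and Btg2) it was larger. The AP-1 subunits Fos, Fosb and Junb, the growth factor response gene Egr1, the orphan nuclear receptor Nr4a1, the neuronal factor Npas4, the nuclear protein Ier2, the synaptic gene Arc, the phosphatase Dusp1 and the antiproliferative gene Btg2 are taken in that order. Values are log2 signal after quantile normalization, given for replicates 1 to 4, and levels of different genes are not compared. A tissue holds many cells, and fewer cells of a type cannot be told apart from less RNA per cell.

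Fos, a subunit of the transcription factor AP-1 and the usual marker of recently active neurons, had the widest range of the members, 5.73-fold from its lowest to its highest array. It read 11.31, 11.21, 11.00 and 9.25 in WT veh and 10.78, 11.77, 10.66 and 9.87 in WT NR. In Atm-/- veh it read 10.89, 11.66, 9.87 and 10.03, and in Atm-/- NR 10.56, 10.98, 10.93 and 9.74. All 4 groups overlapped, and the 5 arrays under 10.1 were replicate 4 of every group and replicate 3 of Atm-/- veh. Group means ran, from high to low, 10.77 ± 0.781 (SD, n = 4 here and in the other groups) in WT NR, 10.69 ± 0.969 in WT veh, 10.61 ± 0.828 in Atm-/- veh and 10.55 ± 0.576 in Atm-/- NR, and no neighbours in this order differed beyond their spread. Of the variance of Fos over the arrays, 98.6% lay within groups.

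**Figure D1:**
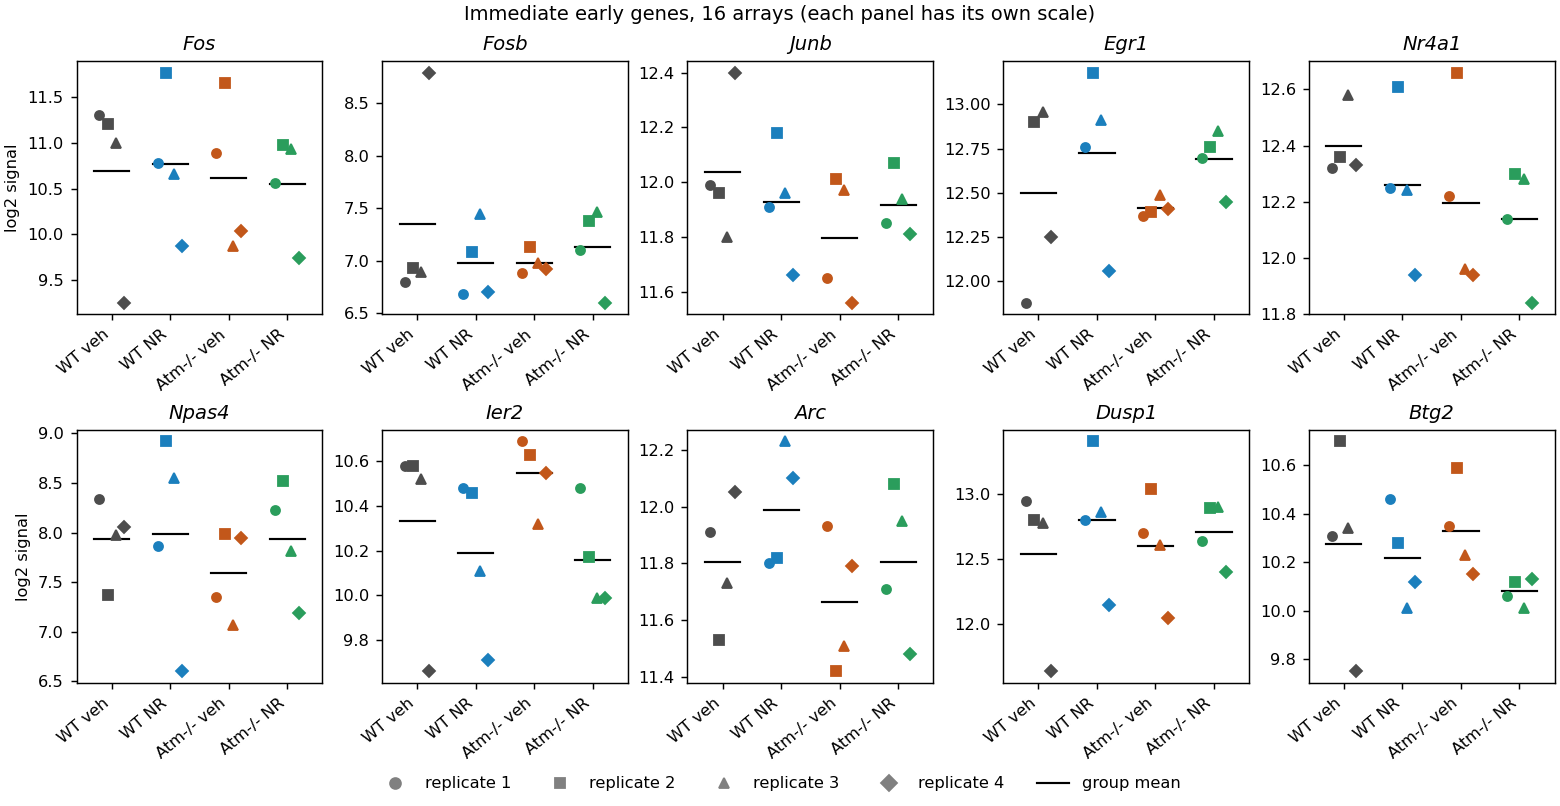
Level of each immediate early gene (log2 signal, y axis) on every array, by group (x axis), with 1 point per array, shaped by replicate number, a bar for the group mean and a separate scale in each panel. Fos ran from 9.25 to 11.77 with every group spanning more than 1 log2 unit, while Junb, Nr4a1, Arc and Btg2 spanned less than 1 log2 unit over all 16 arrays.

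Fosb, a close relative of Fos that also pairs with Jun proteins, owed most of its range to 1 array. It read 6.80, 6.93, 6.89 and 8.79 in WT veh, 6.68, 7.08, 7.44 and 6.70 in WT NR, 6.88, 7.13, 6.98 and 6.92 in Atm-/- veh, and 7.10, 7.38, 7.46 and 6.60 in Atm-/- NR. WT veh 4 was the highest array for Fosb, where Fos was at its lowest, and the other 15 arrays lay between 6.60 and 7.46. Junb, a partner of both in AP-1, read 11.99, 11.96, 11.80 and 12.40 in WT veh, 11.91, 12.18, 11.96 and 11.66 in WT NR, 11.65, 12.01, 11.97 and 11.56 in Atm-/- veh, and 11.85, 12.07, 11.94 and 11.81 in Atm-/- NR. Its highest array was again WT veh 4, and all groups overlapped.

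Egr1, a zinc finger factor induced by growth factors and synaptic activity, read 11.88, 12.90, 12.96 and 12.25 in WT veh and 12.76, 13.18, 12.91 and 12.06 in WT NR. In Atm-/- veh it read 12.37, 12.39, 12.49 and 12.41, and in Atm-/- NR 12.70, 12.76, 12.85 and 12.45. The Atm-/- veh mice lay within 0.1229 log2 units of each other, and 3 of the 4 Atm-/- NR mice lay above all of them, while the 4 groups overlapped. Nr4a1, also known as Nur77, read 12.32, 12.36, 12.58 and 12.33 in WT veh, 12.25, 12.61, 12.24 and 11.94 in WT NR, 12.22, 12.66, 11.96 and 11.94 in Atm-/- veh, and 12.14, 12.30, 12.28 and 11.84 in Atm-/- NR. It was lowest on replicate 4 in 3 of the 4 groups, and no group stood apart.

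Npas4, a factor that in neurons answers calcium entry, ranged 4.99-fold. It read 8.34, 7.37, 7.97 and 8.06 in WT veh, 7.86, 8.92, 8.55 and 6.60 in WT NR, 7.35, 7.99, 7.07 and 7.94 in Atm-/- veh, and 8.23, 8.52, 7.81 and 7.19 in Atm-/- NR. Its lowest and its highest array were both WT NR, so that this group held the whole range. Arc, which acts at synapses in the removal of AMPA receptors, ranged from 11.42 on Atm-/- veh 2 to 12.23 on WT NR 3, or 1.75-fold.

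Ier2, a nuclear protein induced with the AP-1 genes, read 10.58, 10.58, 10.52 and 9.66 in WT veh and 10.48, 10.46, 10.11 and 9.71 in WT NR. In Atm-/- veh it read 10.69, 10.63, 10.32 and 10.55, and in Atm-/- NR 10.48, 10.17, 9.99 and 9.99. Only Atm-/- NR 1 reached into the range of the Atm-/- veh mice. Btg2, which slows cell division and the life of messenger RNAs, read 10.31, 10.70, 10.34 and 9.75 in WT veh, 10.46, 10.28, 10.01 and 10.12 in WT NR, 10.35, 10.59, 10.23 and 10.15 in Atm-/- veh, and 10.06, 10.12, 10.01 and 10.13 in Atm-/- NR. All Atm-/- NR values of Btg2 lay below all Atm-/- veh values.

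Dusp1, the phosphatase that switches off the MAP kinases which induce it, read 12.95, 12.80, 12.78 and 11.63 in WT veh and 12.80, 13.41, 12.86 and 12.14 in WT NR. In Atm-/- veh it read 12.70, 13.04, 12.61 and 12.04, and in Atm-/- NR 12.64, 12.89, 12.90 and 12.40. The replicate 4 arrays, at 11.63 to 12.40, lay below all 12 others, which began at 12.61. This split was seen in the values and then counted, and replicate number 4 is also 1 column of both slides.

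Beside all 37253 probes that passed the filter, the members fell on both sides of the median spread. The SD within groups was 0.801 for Fos, above 95.6% of all probes, 0.661 for Npas4, above 92.8%, 0.550 for Fosb, above 89%, and 0.467 for Dusp1, above 83.9%. It was 0.366 for Egr1 and 0.323 for Ier2, and ran from 0.209 to 0.249 for Junb, Arc, Btg2 and Nr4a1, near the median of 0.228 over all probes. Over the members the median share of variance that lay within groups was 84.6%, and over all probes it was 71.1%.

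The comparison of Atm-/- NR with Atm-/- veh asks whether NR shifted these genes in the mutant cerebellum. Of the 10 members, 0 passed limma at a Benjamini-Hochberg adjusted p of 0.05, where 9.04% of all probes did, and 0 had an unadjusted p under 0.05, where 27.3% of all probes did. By the methods' t-test on the deposited z-scores, 3 members were under 0.05 before adjustment (Ier2, Egr1 and Btg2), where 10391 of all probes were. After adjustment 0 members were under 0.05 by that test, where 3041 of all probes were. The lowest adjusted p was that of Ier2, 0.263 by limma, for a difference of -0.39 log2 units (SE 0.217, 95% confidence interval -0.856 to 0.0757), or 0.763-fold. Btg2 differed by -0.25 (SE 0.165, adjusted p = 0.35 by limma) and was the only member whose groups did not overlap, as held for 20.2% of all probes. Its second probe went the same way, at -0.21 (adjusted p = 0.356 by limma), with overlapping groups. Egr1 differed by 0.28 (SE 0.245, adjusted p = 0.493 by limma).

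The remaining members lay between -0.06 for Fos and 0.35 for Npas4 in this comparison, and 6 of the 10 were higher and 4 lower. The median over the members was 0.12, and over all probes -0.00084. For 8 of the 10 the confidence interval lay within 1 log2 unit of 0, and the exceptions were Fos, at -1.19 to 1.07, and Npas4, at -0.585 to 1.29. Junb has a second, dim probe, well above background on 9 of the 16 arrays, that differed by -0.57 (adjusted p = 0.241 by limma) where the bright one differed by 0.12. The Atm-/- NR arrays had fewer probes well above background than the Atm-/- veh arrays, 34945 to 37817 against 39134 to 41905, and the part of this in the differences was not tested.

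In WT mice, NR moved 0 of the 10 members by limma, as it did 0% of all probes, and 0 of the 10 were under 0.05 before adjustment by limma, against 7.62% of all probes, or by the methods' t-test. Differences ran from -0.38 for Fosb to 0.26 for Dusp1, with adjusted p from 0.848 to 0.994 by limma. These extremes rested on WT veh 4. Without that array, Fosb differed by 0.10 and Dusp1 by -0.04, and Fos moved from 0.08 to -0.40. The lowest unadjusted p was that of Arc, 0.275 by limma, for a difference of 0.18.

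The genotype comparison of untreated mice, Atm-/- veh against WT veh, gave 0 of 10 members called by limma, against 0.0537% of all probes, and 0 under 0.05 before adjustment by limma, against 14.6% of all probes, or by the methods' t-test. Of the 10, 7 were lower in Atm-/- veh, by a median over the members of -0.11, with extremes of -0.37 for Fosb and 0.21 for Ier2 and adjusted p from 0.457 to 0.955 by limma. Here too WT veh 4 carried the extremes, since without it Fosb differed by 0.10, Ier2 by -0.01 and Fos by -0.56. Among NR-treated mice, Atm-/- NR against WT NR, 0 of 10 were called by limma, against 0.0537% of all probes, with 0 under 0.05 before adjustment by limma, against 5.21% of all probes, or by the methods' t-test. Of these, 9 were lower in Atm-/- NR, from -0.22 for Fos to -0.01 for Junb, and Fosb was 0.16 higher, with adjusted p of 1 throughout by limma.

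The difference of the NR effects between genotypes was tested as an interaction in the same model. By limma it passed for 0 of the 10 members, as for 0% of all probes, and 0 were under 0.05 before adjustment, against 5.27% of all probes. The methods' t-test was not run for it. It ran from -0.25 for Ier2 to 0.53 for Fosb, with adjusted p from 0.864 to 0.986 by limma and confidence intervals 0.883 to 3.19 log2 units wide.

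**Figure D2:**
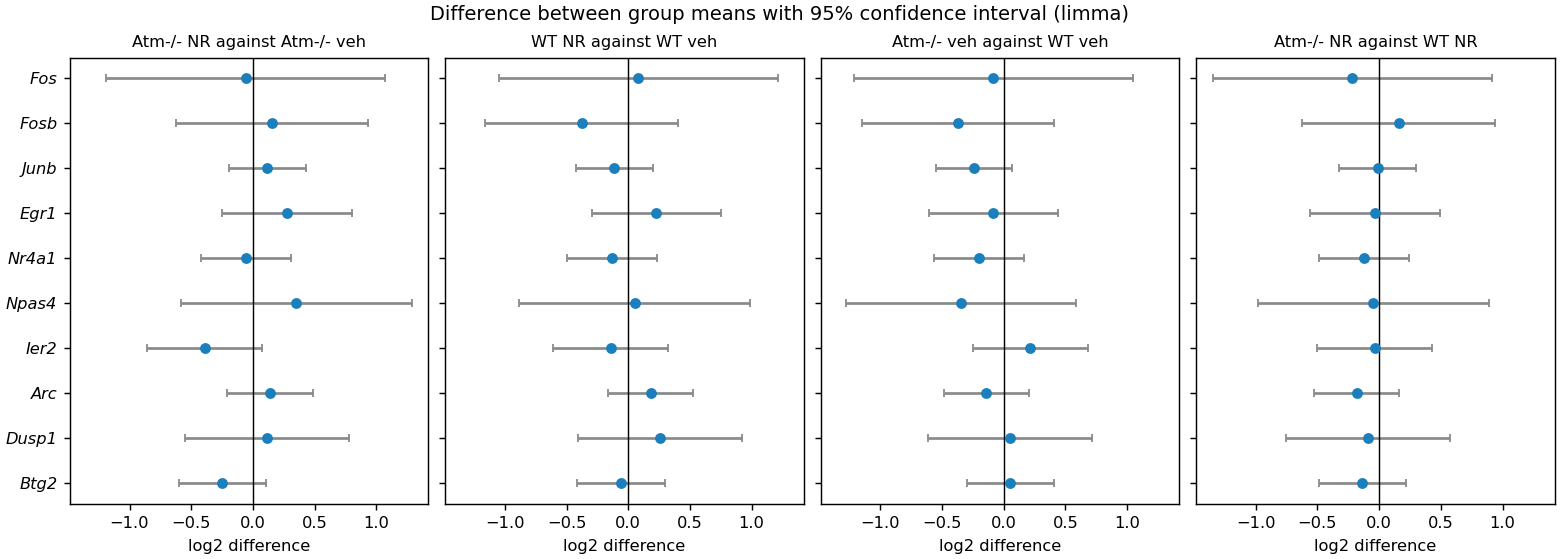
Difference between group means (log2, x axis) of each immediate early gene in 4 comparisons, with its 95% confidence interval from limma. All 40 intervals include 0, and those of Fos, Npas4 and Fosb are the widest.

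The members were also fitted without the arrays named above. With WT veh 4 left out, 0 members were called by limma in each of the 5 comparisons, 1 was under 0.05 before adjustment, and the lowest adjusted p was 0.134. On the 12 arrays with Y-linked signal it was 0.328, with 0 called by limma and 1 under 0.05 before adjustment. On the 11 arrays with low Bcl11b it was 0.468, with 0 called by limma and 0 under 0.05 before adjustment. In Atm-/- NR against Atm-/- veh these subsets called 438 and 0 of all probes, against 3366 on all arrays, so that 0 members called in them is no result about the members.

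Within the groups, several members rose and fell together from mouse to mouse. Correlations were taken over the 16 arrays after each gene's group means were removed, for all 45 pairs of members, with permutation within groups and Benjamini-Hochberg adjustment over the 45. Of the pairs, 31 were positive, with a median r of 0.36. By Pearson's r, 2 pairs passed an adjusted p of 0.05. Fos with Dusp1 had r = 0.93 (permutation p = 0.00011, adjusted 0.0049) and rho = 0.95 (adjusted permutation p = 0.0049), and r was 0.88 without WT veh 4 and WT NR 4, the arrays farthest from the median of Fos. Fos with Nr4a1 had r = 0.80 (permutation p = 0.00066, adjusted 0.015) and rho = 0.73 (permutation p = 0.0053, adjusted 0.08), and r was 0.88 without the same arrays.

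Fosb and Junb, which share their highest array, had r = 0.70 (permutation p = 0.0085, adjusted 0.063) and rho = 0.69. Their r was 0.59 without WT veh 4 and WT NR 3, and 0.50 without WT veh 4 alone (adjusted exact p = 0.2). Ier2 followed Fos at r = 0.78 (adjusted permutation p = 0.052), which fell to 0.56 without the 2 farthest arrays. Fosb went against Btg2 at r = -0.70 (adjusted permutation p = 0.18), and this became -0.26 without WT veh 4 and WT NR 3. Each member was also set against the mean of the other 9, here with group means not removed. Nr4a1 had r = 0.84, Fos 0.72, Dusp1 0.69 and Npas4 0.68, while Arc had -0.04 and Fosb -0.07. These values describe the arrays and carry no test.

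**Figure D3:**
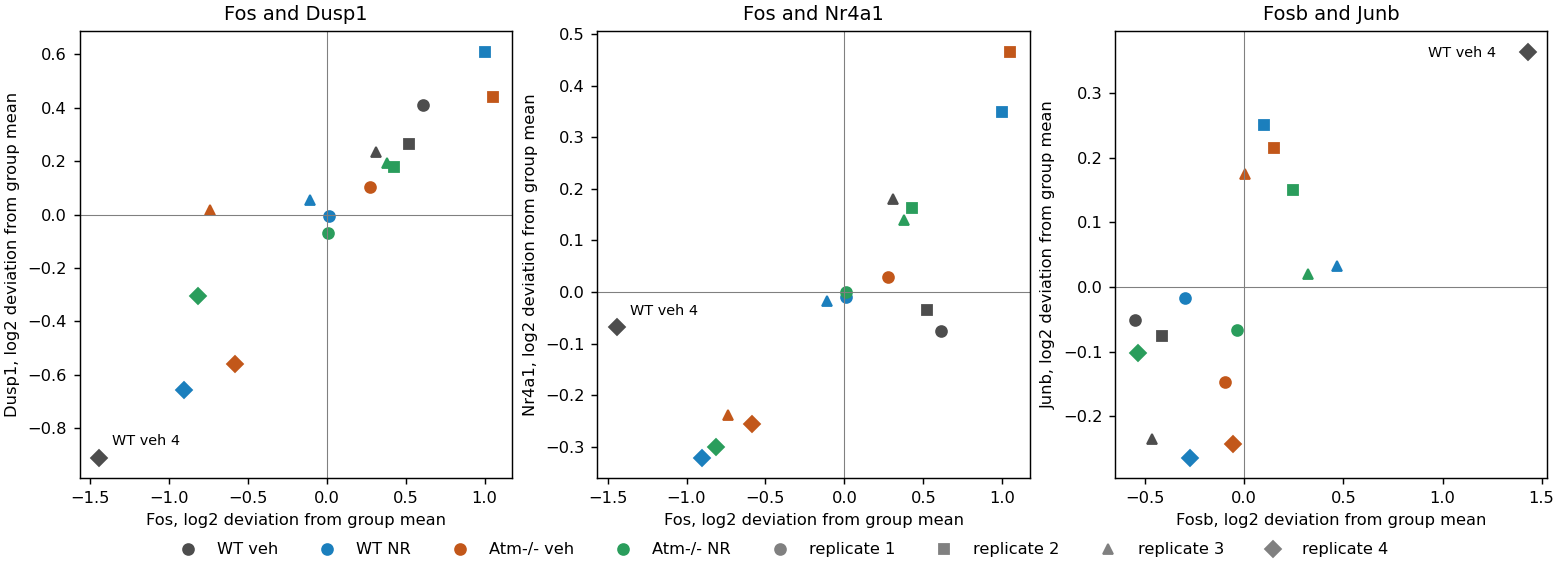
Deviation of each array from its group mean (log2) for 3 pairs, Fos with Dusp1, Fos with Nr4a1 and Fosb with Junb, with 1 point per array coloured by group and shaped by replicate number. Fos and Dusp1 lie along a line with r = 0.93, while WT veh 4 sits off the cloud for Fos with Nr4a1 and alone at the upper right for Fosb with Junb.

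Without WT veh 4 the positive pairs numbered 37 of 45, with a median r of 0.46, and 4 pairs passed by r. These were Fos with Nr4a1 at 0.94 (adjusted exact p = 0.026), Fos with Dusp1 at 0.89 (0.026 likewise), Junb with Dusp1 at 0.86 (0.026) and Nr4a1 with Dusp1 at 0.85 (0.039). On all 16 arrays Junb with Dusp1 had r = 0.16 (adjusted permutation p = 0.71) and Nr4a1 with Dusp1 0.70 (adjusted 0.052). Junb with Dusp1 had r = -0.12 on the WT slide and 0.78 on the Atm-/- slide. Within the WT slide, 8 arrays, Fos with Dusp1 had r = 0.99 (exact p = 0.0052, adjusted 0.13) and Fos with Nr4a1 0.65 (exact p = 0.068). Within the Atm-/- slide, also 8 arrays, Fos with Dusp1 had r = 0.83 (exact p = 0.023, adjusted 0.17) and Fos with Nr4a1 0.99 (exact p = 0.0052). Both pairs were positive on each slide, and 0 pairs passed the adjustment, but a slide allows only 576 arrangements, so that the smallest p is 0.0017 and a single pair cannot go below 0.078 after adjustment.

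The permutations did not hold the replicate number, which is also the slide column, and replicate 4 was below its group mean for both Fos and Dusp1 in all 4 groups. With the mean of each replicate number removed as well, r was 0.78 for Fos with Dusp1 and 0.48 for Fos with Nr4a1. It was 0.15 for Nr4a1 with Dusp1 and 0.79 for Fosb with Junb. Of the 45 pairs, 26 were then positive, with a median r of 0.13 and a lowest of -0.85, as descriptions with no test. On replicates 1 to 3 alone, 12 arrays, Fos with Dusp1 had r = 0.87 (exact p = 0.0046, adjusted 0.21) and Fos with Nr4a1 0.88 (exact p = 0.029, adjusted 0.45). Fosb with Junb had r = 0.34 there (exact p = 0.38, adjusted 0.82). These settings were chosen after seeing the data.

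On the 12 arrays with Y-linked signal, Fos with Dusp1 kept r = 0.99 (exact p = 0.0012, adjusted 0.052), Fos with Nr4a1 had 0.67 (adjusted exact p = 0.28), and the median over the 45 pairs was 0.01. On the 11 arrays with low Bcl11b, Fos with Dusp1 had r = 0.82 (exact p = 0.052) and Fos with Nr4a1 0.90 (exact p = 0.021), with a lowest adjusted p of 0.41. In neither subset did any of the 45 pairs pass the adjustment.

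The members together placed single mice high or low. The mean deviation of the 10 genes from their means over all 16 arrays was highest on WT NR 2, at 0.433 log2 units, and next on Atm-/- veh 2, at 0.214. It was lowest on WT NR 4, at -0.448, then on Atm-/- NR 4, at -0.375, and on Atm-/- veh 3, at -0.236, all of them arrays without Y-linked signal. WT NR 1, the remaining array of that kind, was at 0.0394, and Atm-/- veh 4, which had Y-linked signal, was at -0.208. The part of sex, slide column and mouse in these levels was not tested.

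**Figure D4:**
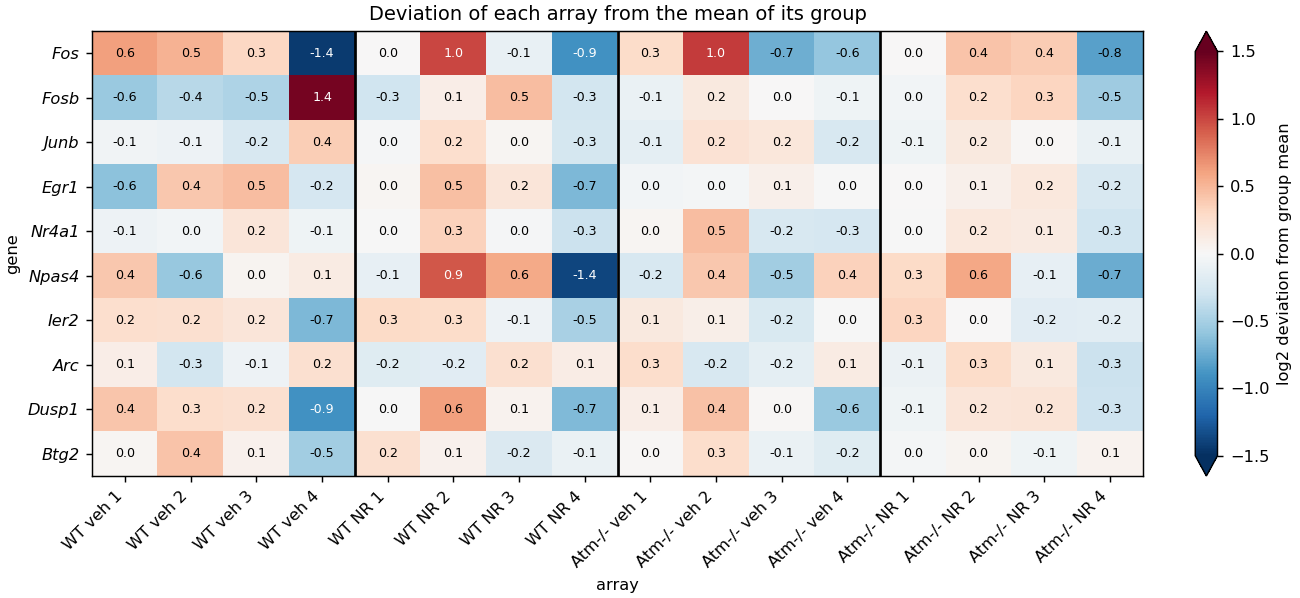
Deviation of each immediate early gene (lines) from the mean of the array's group, in log2 units rounded to 1 decimal, on every array (columns, by group), red above and blue below. Fos and Dusp1 are blue on replicate 4 of every group, and WT veh 4 is red for Fosb and Junb and blue for Fos, Dusp1, Ier2 and Btg2.

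WT veh 4 divided the members. It was the highest of the 16 arrays for Fosb and Junb and the lowest for Fos, Dusp1, Ier2 and Btg2. The same array had Folr1 at 13.45 (5.661 to 8.458 on the others) and Kcnj13 at 13.22 (7.726 to 9.836), both genes of choroid plexus, and 7 of 8 choroid plexus markers were more than 1 log2 unit above every other array. Of the forebrain markers, 4 of 7 were as far above, among them Tbr1 at 12.24 (6.769 to 8.673). Relative to their mean over all arrays, granule cell markers lay at -0.382 there and Purkinje cell markers at -0.472. The part of tissue from outside the cerebellum in the member levels of this array was not tested.

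Egr2 and Egr3, relatives of Egr1 that are also immediate early genes, showed a pattern that Egr1 did not, and were picked out after their values were seen. Egr3 read 8.28 to 11.3 on the 5 arrays with high Bcl11b and 4.32 to 5.70 on the other 11, and it was well above background on 12 arrays. Egr2 read 6.60 to 7.89 on those 5 and 4.34 to 6.33 on the others. Such arrays make up 2 of 4 in Atm-/- NR and 0 of 4 in Atm-/- veh, and their part in the differences was not tested. Egr2 differed by 1.55 (SE 0.714, adjusted p = 0.177 by limma) and Egr3 by 1.85 (SE 1.54, adjusted p = 0.463 by limma) between these groups, neither past the test, and the third highest Egr2 value of Atm-/- NR, 6.33 on an array with low Bcl11b, was also above all 4 Atm-/- veh arrays. Tbr1, another forebrain marker, overlapped between the 5 arrays and the rest.

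**Figure D5:**
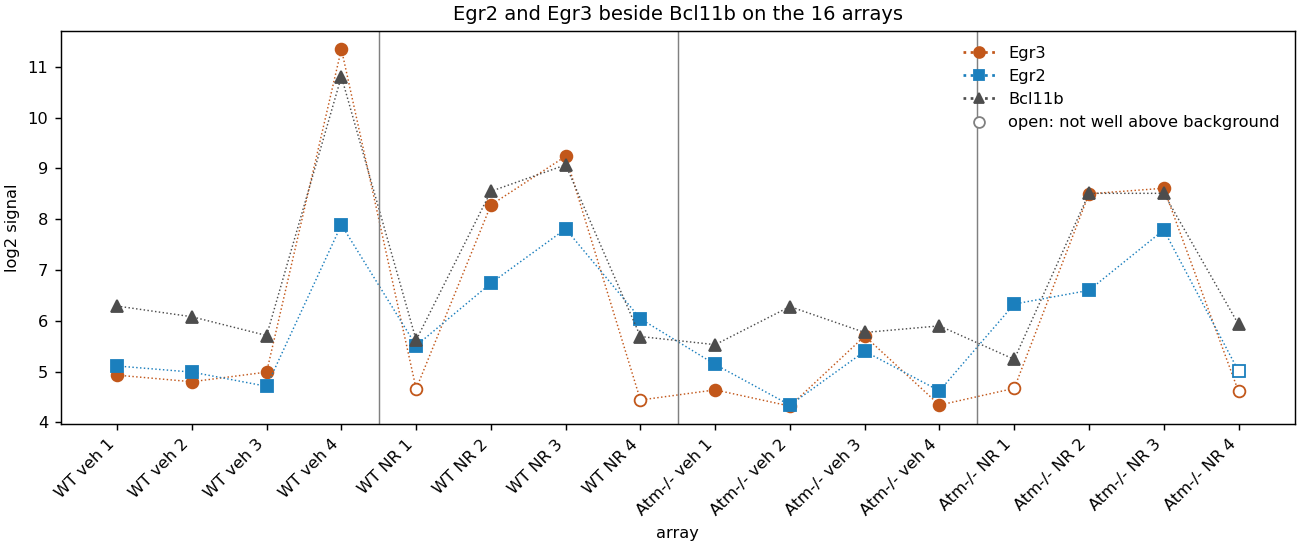
Level of Egr3, Egr2 and Bcl11b (log2 signal, y axis) on each of the 16 arrays (x axis, by group), with 1 point per array, open where the probe was not well above background, and lines to guide the eye. Egr3 reads 8.28 to 11.3 on the 5 arrays where Bcl11b is above 8, and 4.32 to 5.70 on the other 11.

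Around the 10 genes, other parts of the immediate early response were followed in Atm-/- NR against Atm-/- veh, each gene by its brightest probe, where 11.5% of 16737 genes were called by limma (6.67% higher, 4.80% lower) and the median difference over all genes was 0.036. Of 20 other immediate early transcription factors, 3 were called, 2 higher and 1 lower, and the median was -0.093. Klf10, a zinc finger repressor induced by TGF-β, read 10.65 to 10.79 in Atm-/- veh and 11.10 to 11.35 in Atm-/- NR, a rise of 0.54 (SE 0.111, adjusted p = 0.0145 by limma). Crem, which encodes relatives of CREB including the inducible repressor ICER, read 9.34 to 9.67 and 9.80 to 10.05, a rise of 0.45 (SE 0.0871, adjusted p = 0.012 by limma). Csrnp1, a nuclear protein induced by AXIN1, fell by 0.53 (SE 0.149, adjusted p = 0.0425 by limma), from 11.28 to 11.57 down to 10.61 to 11.08.

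Among 36 kinases and factors upstream of the members, 4 were called, 2 in each direction, where 11.5% of all genes were called. Of the 36, 18 were higher and 18 lower, with a median of -0.0041. Creb1, which encodes CREB, read 11.43 to 11.75 in Atm-/- veh and 11.96 to 12.12 in Atm-/- NR, a rise of 0.46 (adjusted p = 0.0124 by limma). Mapk8, the stress kinase JNK1, rose by 0.38 (adjusted p = 0.0165 by limma). Rps6ka4, the kinase MSK2 that phosphorylates CREB, differed by -0.37 (adjusted p = 0.0146 by limma), and Ep300, a coactivator that acetylates histones, by -0.36 (adjusted p = 0.0483 by limma). Each of these 4 had groups that did not overlap, as held for 20.2% of all probes. They were named because they were called in this comparison, so that the separation adds no support to the calls.

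Of 22 immediate early effectors and feedback inhibitors, 0 were called by limma, where 11.5% of all genes were, and the median was -0.1. Before adjustment 2 were under 0.05, against 27.3% of all probes. Zfp36, which directs the decay of messenger RNAs with AU-rich elements, differed by -0.52 (adjusted p = 0.0768 by limma) and Ccn1, a matrix protein, by -0.55 (adjusted p = 0.183 by limma). Of 11 late activity-regulated secreted and synaptic genes, 0 were called by limma and 0 were under 0.05 before adjustment, with 10 higher and a median of 0.25. The mean deviation of this list was 0.309 to 0.652 on the 5 arrays with high Bcl11b and at most 0.0973 on the other 11, and the part of these arrays in the shift was not tested. Nrn1, a secreted growth protein of neurons, differed by 0.30 (adjusted p = 0.197 by limma) and the granin Scg2 by 0.47.

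Glucocorticoids and heat shock also act on several of these genes. Of 18 genes induced by glucocorticoids, 17 were lower in Atm-/- NR, with a median of -0.31, and 2 were called, where 11.5% of all genes were. Cdkn1a, the cell cycle inhibitor p21, differed by -1.13 (adjusted p = 0.0309 by limma) and Ddit4, an inhibitor of mTORC1, by -0.77 (adjusted p = 0.0426 by limma). The list lay 1.31 log2 units above its mean on Atm-/- veh 3 and at most 0.207 above on every other array. Markers of blood, at 1.51, and of endothelial and mural cells, at 0.36, were also highest on that array, and those of microglia were at 0.514, and their part in the list's level was not tested. Without that array 10 of the 18 were lower, the median was -0.037, Cdkn1a differed by -0.72 (adjusted p = 0.0152 by limma) and Ddit4 by -0.65 (adjusted p = 0.104 by limma), while Errfi1, a feedback inhibitor of the EGF receptor, was called as 0.47 higher (adjusted p = 0.0406 by limma). Without it the median of the other immediate early transcription factors also turned, to 0.047, and that of the effectors to 0.017. Of 10 heat-inducible chaperones, 8 were higher and 3 were called, where 11.5% of all genes were called. The 3 were Dnajb1, higher by 0.35, Hsp90aa1 by 0.37 and Dnaja1 by 0.26 (adjusted p = 0.0279, 0.0294 and 0.039 by limma). Without Atm-/- veh 3, 1 of the 10 was called, Dnajb1 (0.36, adjusted p = 0.0479 by limma).

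These 12 calls, among the 117 genes of the 6 lists, where 11.5% of all genes were called, changed with the arrays in the fit. With only the arrays of the groups compared, 8 of them were called, and Cdkn1a was not (adjusted p = 0.107 by limma). On the 12 arrays with Y-linked signal 1 of them was called, Cdkn1a (adjusted p = 0.0451 by limma), and on the 11 arrays with low Bcl11b 0 were, where 0 of all probes were called either. The direction of each of the 12 was the same in both, and with fewer arrays the differences were 0.60 and 0.51 for Klf10, 0.48 and 0.38 for Crem, and 0.47 and 0.50 for Creb1, against 0.54, 0.45 and 0.46 on all arrays. Klf10, Crem and Creb1 were called whichever single array was left out. Of the others, Csrnp1 lost its call in 12 of these 16 fits, Ep300 in 11, Ddit4 in 9, Dnaja1 in 8 and Hsp90aa1 in 6. Cdkn1a lost its call in 5 of them, Dnajb1 in 4, Mapk8 in 2 and Rps6ka4 in 1. As means over the probes of each gene, Klf10 stayed at 0.54 (adjusted p = 0.0195 by limma), while Crem differed by 0.20 (adjusted p = 0.256 by limma) and Creb1 by 0.21 (adjusted p = 0.177 by limma). Mapk8 then differed by 0.16 (adjusted p = 0.358 by limma) and Ep300 by -0.12 (adjusted p = 0.42 by limma). In the other 4 comparisons 0 genes of the 6 lists were called by limma. Of the 468 tested differences, 39 were under 0.05 before adjustment. Over all probes the shares under 0.05 by limma were 7.62% in WT NR against WT veh and 14.6% in Atm-/- veh against WT veh. They were 5.21% in Atm-/- NR against WT NR and 5.27% in the interaction.

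The genes whose levels were most like the mean of the 10 members over the 16 arrays, by Pearson's r as a description, were Tada2b, Rab34 and Ampd2 (0.79 each), Hlf (0.78), Rtl5 (0.77), Axin2 (0.76), and Zfp707 and Gpr146 (0.74 each). Group means were not removed for these r values. None of these 8 genes belongs to the lists used here.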

How the data were processed

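RNA of 16 mice was measured on 1-colour arrays, 4 per group, with groups and replicate numbers from the sample labels. The authors deposited the scanner output of Agilent Feature Extraction 12.0.3.1. Its intensity for each of 62976 spots, of which 3671 are controls, was corrected for local background and was not scaled across arrays. Other files, also deposited, hold z-scores (scores with no unit) by spot and array, and marks for spots well above background were deposited with the intensities.

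By accession, 32994 of 56605 probes could be matched to RefSeq genes of GRCm38.p6. That match gave names only, as the array design uses another build. The promoters also came from RefSeq on GRCm38.p6. A probe was detected where 0.5 or more of its spots were marked, and a probe was used if every one of the 4 arrays of some group detected it. These were 37253 of the 56605 probes (65.8%), and the named ones among them cover 16737 genes. Log2 intensity was put through quantile normalization, outlier spots were dropped, and repeated spots were averaged. A gene is given by its brightest probe.

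Group means over all 16 arrays were compared with limma 3.58.1 (R 4.3.3, version 1.17.8 of data.table, 12 residual degrees of freedom), at a threshold of 0.05 after Benjamini-Hochberg adjustment. Correlations used 100000 permutations within groups for 16 arrays and every arrangement for fewer. The number of arrays limits the precision, and 34945 to 42559 probes per array were well above background. In 5 simulations of Atm-/- NR against Atm-/- veh over 37253 probes, 26.3% of 335 probes changed by 0.5 log2 units were recovered, 65.4% of 335 changed by 1 and 91.2% of 330 changed by 2, with 32 false calls among 640. The changed probes were drawn from all probes, with independent noise, and were far fewer than the 3366 called in the data. These shares are therefore not those for the members, of which Fos, Npas4, Fosb and Dusp1 spread more than most probes.

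The members and the lists (6 of gene function, 11 of markers) were chosen with earlier results of these data known. Named genes are the members, called genes of the 6 lists or, where a list had none, its 2 of lowest p, Atm, markers where arrays stood apart, and the 8 genes most like the members' mean. Egr2, Egr3 and Bcl11b were named after their values were seen, and some marker genes are not reported here. Alternatives were the 75th percentile of each array, normexp with an offset of 50 on the median signal, the z-scores, other filters on dim probes, the mean over probes of a gene, only the groups compared, a replicate block, the methods' t-test on z-scores, group means not removed, and each array left out. Subsets by Y-linked signal, Bcl11b, slide and replicate number were chosen after seeing the data.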

Additional observations from a re-analysis of the deposited data

Results flagged for a closer look

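Within a group of 4, a single array far from the others was looked for in each of the 10 genes and 4 groups, and 5 of the 40 were found, where chance gives about 1 in 20. Of these, 4 were WT veh 4, with Fos at 9.25, Ier2 at 9.66 and Dusp1 at 11.63 far below the other WT veh arrays, and Fosb at 8.79 far above them. The other was Nr4a1, at 12.58 on WT veh 3, above the other WT veh arrays, which lay between 12.32 and 12.36. These 5 values are from 2 arrays of 1 group and are not independent.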

How the results depend on the processing

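No member was called by limma in any comparison under any alternative. The methods' t-test on z-scores put 3 members, Egr1, Ier2 and Btg2, under 0.05 before adjustment in Atm-/- NR against Atm-/- veh and 0 after it. Of all probes, the same test put 10391 under 0.05 before adjustment and 3041 after it. Directions of uncalled members turned in 31 of 570 alternative values and in 65 of 800 with 1 array left out. In Atm-/- NR against Atm-/- veh these were Junb (-0.226 as the mean over its probes) and, on the 11 arrays with low Bcl11b, Arc (-0.0689), Dusp1 (-0.0739) and Fosb (-0.131). Also on those 11 arrays turned, in Atm-/- veh against WT veh, Btg2 (-0.121), Dusp1 (-0.249), Fosb (0.104) and Ier2 (-0.0115), in Atm-/- NR against WT NR, Dusp1 (0.0529), Egr1 (0.166), Ier2 (0.142), Junb (0.045) and Npas4 (0.475), in WT NR against WT veh, Dusp1 (-0.376), Egr1 (-0.174), Fos (-0.85) and Npas4 (-0.662), and in the interaction, Dusp1 (0.302), Fos (0.387) and Ier2 (0.154). On the 12 arrays with Y-linked signal, Fos turned in Atm-/- veh against WT veh (0.163), Junb (0.0286) and Nr4a1 (0.0329) in WT NR against WT veh, and Egr1 (-0.164), Npas4 (-0.377) and Nr4a1 (-0.0696) in the interaction. Junb in Atm-/- NR against WT NR turned with the z-scores (0.0025), in limma and in the t-test, Npas4 in WT NR against WT veh with normexp (-0.0202), and Junb in the interaction as the mean over its probes (-0.11). The cause was not tested.

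With 1 array left out, the values that turned ranged as follows. In Atm-/- NR against Atm-/- veh, Fos ranged from -0.305 to 0.29, Nr4a1 from -0.142 to 0.098 and Dusp1 from -0.0733 to 0.259. In WT NR against WT veh, Fos ranged from -0.404 to 0.377, Fosb from -0.56 to 0.103, Junb from -0.195 to 0.009, Npas4 from -0.262 to 0.511, Ier2 from -0.367 to 0.0195, Dusp1 from -0.0437 to 0.479 and Btg2 from -0.234 to 0.0823. In Atm-/- veh against WT veh, Fos ranged from -0.564 to 0.163, Fosb from -0.558 to 0.104, Egr1 from -0.289 to 0.0697, Ier2 from -0.0115 to 0.298, Dusp1 from -0.249 to 0.24 and Btg2 from -0.121 to 0.195. In Atm-/- NR against WT NR, Fos ranged from -0.519 to 0.115, Junb from -0.0989 to 0.0723, Egr1 from -0.259 to 0.116, Npas4 from -0.509 to 0.264, Ier2 from -0.195 to 0.0623 and Dusp1 from -0.312 to 0.111. In the interaction, Fos ranged from -0.436 to 0.345, Egr1 from -0.176 to 0.254, Nr4a1 from -0.0313 to 0.231, Npas4 from -0.161 to 0.613, Arc from -0.134 to 0.0641 and Dusp1 from -0.366 to 0.156.

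The number of co-varying pairs that passed, 2, was 6 with the 75th percentile, 5 with group means not removed, 0 on the Y-linked, Bcl11b, WT slide and Atm-/- slide subsets and on replicates 1 to 3, and 1 to 5 with 1 array left out (1 without WT NR 4, Atm-/- veh 2, Atm-/- veh 4 or Atm-/- NR 4, and 5 without Atm-/- veh 3 or Atm-/- NR 2). The 12 called list genes became 8 with only the groups compared, 4 as means over probes, 1 on the Y-linked subset, 0 on the Bcl11b subset, and 3 (without Atm-/- NR 3) to 16 (without WT veh 4) with 1 array left out. With the replicate number as a block, limma called 0 members in all 5 comparisons, with a lowest adjusted p of 0.131, and called 3140 of all probes against 3366 in Atm-/- NR against Atm-/- veh. Over all probes, same-numbered arrays correlated at r = -0.33 to 0.37 and arrays of other numbers at -0.33 to 0.45. Of 16 arrays, 2 correlated best with their own number. These values do not settle whether the numbers pair mice or share a column effect. Called probes of all in that comparison numbered 1866 as means over probes, 438 on the Y-linked subset, 0 on the Bcl11b subset, 10391 by the t-test before adjustment, and 862 (without Atm-/- veh 1) to 4405 (without WT veh 4) with 1 array left out. In Atm-/- veh against WT veh the 20 became 7 with only those groups, 5 on the Bcl11b subset, 2 by the adjusted t-test and 12 to 41 with 1 array left out. In Atm-/- NR against WT NR the 20 became 10 on the Y-linked subset, 8 on the Bcl11b subset and 10 by the adjusted t-test.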
